A study of Oreochromis niloticus with 21 samples.

Results

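Of 17098 genes measured in 7 tissues of the Nile tilapia (Oreochromis niloticus), 215 were restricted to muscle. A gene was counted as restricted when its muscle level was at least 3 above that of the highest other tissue on a log2 scale and its mean muscle RPKM was at least 5. RPKM divides the reads of a gene by its length and by a constant of the library, and the level of a tissue was log2(mean RPKM over the 3 temperatures + 1). The minimum RPKM could remove no gene, since with 1 added to the mean RPKM a margin of 3 already asks for a higher mean. The margin alone left the same 215. The genes were thus chosen by these same RPKM values, muscle against the other tissues, so their height in muscle is described here and not tested.

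The Nile tilapia is a warm-water fish. Fish 6 months old were held for 12 h at 10, 18 or 28 °C, and RNA was taken from muscle, brain, gill, heart, kidney, liver and spleen, with 1 library for each tissue and temperature, 21 in all. The labels name no strain and no sex, and give neither the number of fish nor whether 1 fish gave several tissues. They say muscle, without the fibre type or the part of the body. Without replicates, a difference between 2 muscle libraries holds temperature and fish together, and these cannot be told apart.

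Muscle fibres are packed with sarcomeres, in which thick filaments of myosin slide along thin filaments of actin, and calcium released from the sarcoplasmic reticulum switches the sliding on through troponin and tropomyosin. In fish, fast glycolytic fibres make up most of the trunk and slow oxidative fibres lie in a thinner layer. Muscle RNA is known for being dominated by transcripts of contractile proteins, calcium handling proteins and glycolytic enzymes. None of these names can be attached to the genes below: the files give Ensembl gene IDs, 0 of the 17098 IDs matched the RefSeq gene table used here, and the marker genes of muscle could therefore not be checked by name. Few IDs are printed for that reason.

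Each RPKM value was a whole number of reads divided by a gene length and a library constant, so reads and lengths could be recovered. The muscle libraries held 1810033 reads on genes at 10 °C, 3664592 at 18 °C and 887036 at 28 °C, and the 18 libraries of other tissues between 331738 and 3041530. The library constant was not this total: reads on genes were 1.77 times the constant in muscle at 10 °C, 0.973 times at 18 °C and 0.922 times at 28 °C, so RPKM and shares of reads scale the 10 °C library differently. The median muscle-restricted gene had 162 reads in the 10 °C library, 834 in the 18 °C library and 162 in the 28 °C library. One gene had 0 reads in a muscle library and 7 genes had fewer than 5 reads in at least 1. Intervals given with read shares and ratios are exact 95% intervals (Clopper-Pearson) and cover counting error only.

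The muscle-restricted genes made up most of the reads on genes in each muscle library. They held 82.7% of reads at 10 °C (interval 82.6 to 82.7), 68.4% at 18 °C (68.4 to 68.5) and 68.1% at 28 °C (68.0 to 68.2). Without the most abundant of them, ENSONIG00000002856, the other 214 held 26.7%, 55.3% and 37.5% at 10, 18 and 28 °C. Their mean muscle RPKM ran from 7.32 to 126809 with a median of 77.4, and 30 of them averaged at least 1000. The single highest gene accounted for 34.4% of their summed mean RPKM, the 10 highest for 74.4% and the 50 highest for 96.3%.

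The margin over the next tissue had a median of 4.42 on the log2 scale, a ratio of 21.4 in RPKM + 1. It reached 5 in 75 genes and 10 in 13 genes. Margin and muscle level rose together over the 215 genes (Spearman's rho = 0.664). This value is a description across genes, and both quantities hold the muscle level. ENSONIG00000001612 had the largest margin, 12.25. Its RPKM was 16219 at 10 °C, 22789 at 18 °C and 9516 at 28 °C in muscle, and at most 3.61 in any other library. ENSONIG00000001737, with a margin of 12.02, had 7699, 14922 and 21395 RPKM in muscle at 10, 18 and 28 °C and at most 5.74 elsewhere. In muscle, the first gene was lowest at 28 °C and the second lowest at 10 °C.

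**Figure D1:**
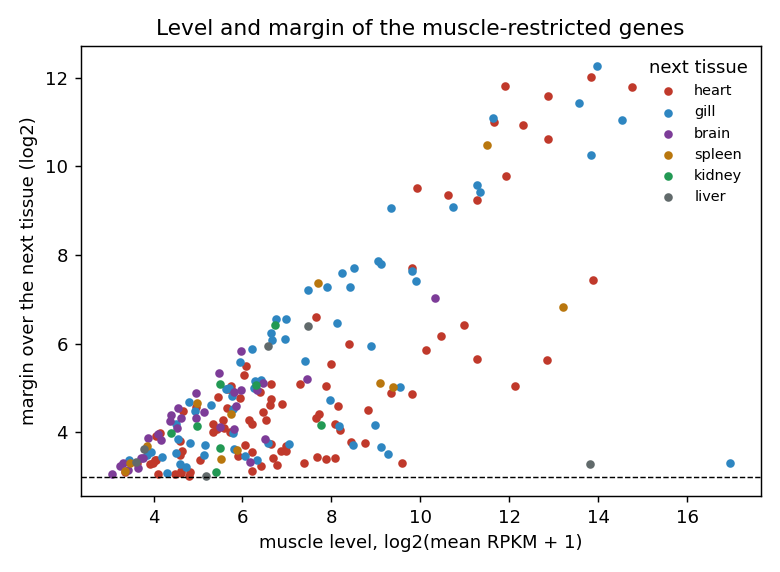
Muscle level, log2(mean RPKM + 1), on the x axis against the margin over the next tissue in log2 units on the y axis, 1 point for each of the 215 genes, coloured by the next tissue. The dashed line is the margin of 3 used to choose the genes, and the 2 points far to the right along that line are ENSONIG00000002856 and ENSONIG00000012916.

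At the lower edge, ENSONIG00000018509 had a margin of 3.02, with 36.1, 31.6 and 37.6 RPKM in muscle at 10, 18 and 28 °C and a mean of 3.45 in liver. ENSONIG00000006026 also had a margin of 3.02, with a mean of 26.9 RPKM in muscle and 2.43 in heart. Just outside, ENSONIG00000004373 had a margin of 2.996, with a mean of 121 RPKM in muscle and 14.3 in brain, and ENSONIG00000004782 one of 2.99, with 20.7 in muscle and 1.73 in gill. The edge thus held genes of moderate muscle level as well as low ones.

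Heart was the next highest tissue for 93 of the 215 genes, gill for 65, brain for 31, spleen for 12, kidney for 8 and liver for 6. Genes with heart next had a median mean RPKM of 98.4 in muscle and 2.98 in heart. Those with gill next had 107 in muscle and 1.38 in gill, and those with brain next 29.9 in muscle and 0.261 in brain. In 210 of the 215 genes the lowest muscle library lay above the highest of the 18 other libraries, as it did in 3.95% of all genes, and the choice of genes largely fixes this count.

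**Figure D2:**
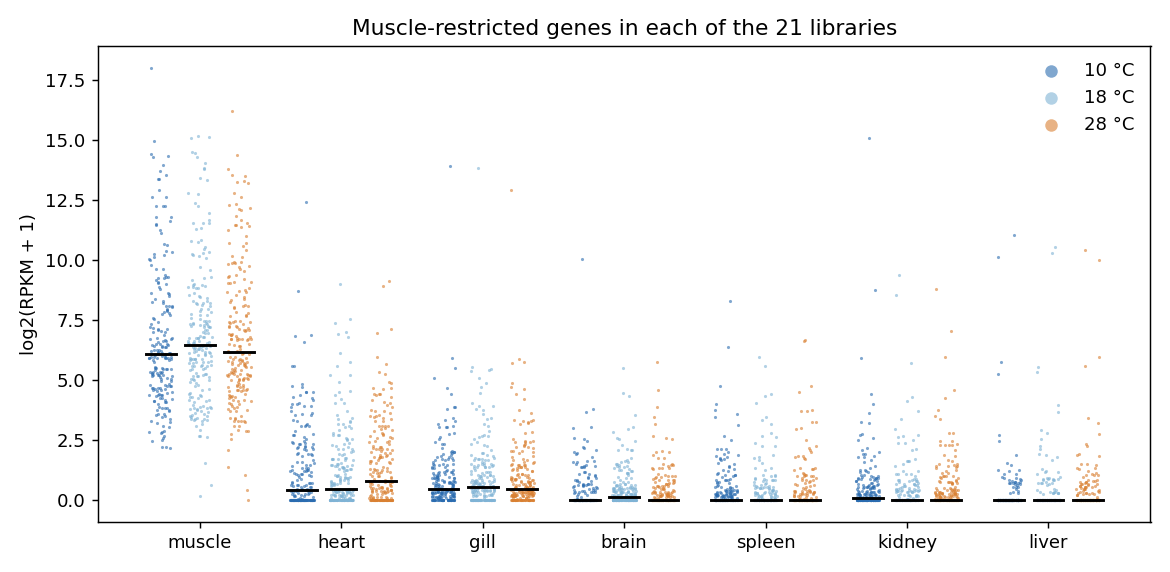
Levels of the 215 genes, log2(RPKM + 1), in each of the 21 libraries, with 1 point per gene, a black bar at the median, and colours for temperature. The muscle medians correspond to 67.6, 86.9 and 70.3 RPKM at 10, 18 and 28 °C, and the medians of every other library lie below 1 RPKM, with single genes far above.

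The rule also held at single temperatures for most of the genes. With the levels of 1 temperature alone, 173 of the 215 met it at 10 °C, 179 at 18 °C and 182 at 28 °C, and 126 met it at each of the 3. Of all genes, 233, 234 and 207 met it at 10, 18 and 28 °C alone. The choice of genes used the mean of these same libraries and largely fixes the counts. The rank order of the genes in muscle was similar between libraries, with a Spearman's rho over the 215 genes of 0.838 for the libraries at 10 and 28 °C, 0.907 for those at 18 and 28 °C and 0.831 for those at 10 and 18 °C. Rank order was less alike between temperatures in liver, where rho was 0.520 to 0.603, and liver had between 149 and 176 of the genes at 0 reads. This was not particular to liver, since rho was 0.560 to 0.759 in brain and 0.595 to 0.723 in kidney.

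ENSONIG00000002856 was the most abundant of the genes in muscle and the highest outside it. Its RPKM in muscle was 268825 at 10 °C, 34767 at 18 °C and 76836 at 28 °C, a mean of 126809 ± 124775 (SD over the 3 temperatures, n = 3). It held 55.9% of muscle reads at 10 °C (interval 55.9 to 56.0), 13.1% at 18 °C (13.1 to 13.2) and 30.6% at 28 °C (30.5 to 30.7). The 10 °C library was thus the high one and 18 °C the low one, with 28 °C between them. Its margin was only 3.31, over gill, where it had 15670, 14928 and 7727 RPKM at 10, 18 and 28 °C. In kidney it had 35414 RPKM at 10 °C, 369 at 18 °C and 130 at 28 °C, so kidney at 10 °C lay above muscle at 18 °C. With the levels of 1 temperature alone, it met the rule at 28 °C and not at 10 or 18 °C.

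ENSONIG00000019825, next in abundance, had little RPKM outside muscle. It had 32214 RPKM at 10 °C, 36174 at 18 °C and 14255 at 28 °C in muscle, a mean of 27548 ± 11681 (SD over the 3 temperatures, n = 3), and at most 13.9 in any other library. In kidney at 10 °C it had 0.521 RPKM and in gill at 10 °C 0.267. Between 10 and 28 °C its log2 difference in muscle was 1.18, a ratio of 2.26 (interval 2.22 to 2.30), against 1.81 and a ratio of 3.50 (3.48 to 3.51) for ENSONIG00000002856. Between 10 and 18 °C the 2 genes went apart, with log2 differences of -0.17 and 2.95.

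Without ENSONIG00000002856 the summed level of the other 214 genes in muscle was 248117 RPKM at 10 °C, 291130 at 18 °C and 187120 at 28 °C. With it the sums were 516942, 325897 and 263955. The 10 °C library was the highest of the 3 with that gene counted and the second without it. As shares of reads, the other 214 genes held 26.7% at 10 °C (interval 26.7 to 26.8), 55.3% at 18 °C (55.2 to 55.3) and 37.5% at 28 °C (37.4 to 37.6). The share of the 214 genes was lowest at 10 °C, while their summed RPKM was lowest at 28 °C.

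**Figure D3:**
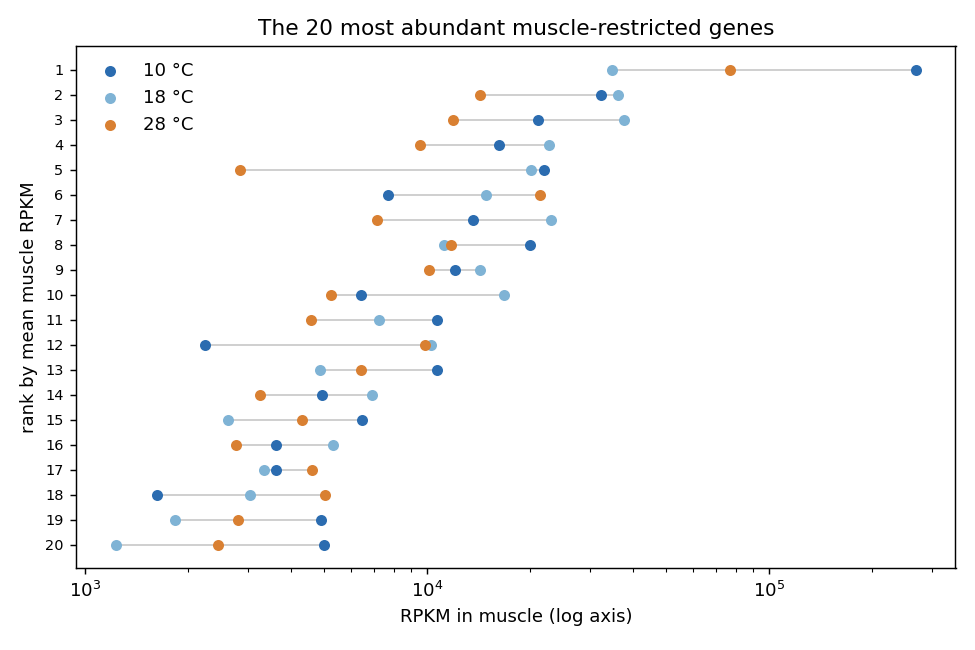
RPKM in muscle, on a log axis, of the 20 most abundant muscle-restricted genes, ranked by mean muscle RPKM from 1 at the top, with 1 point per library coloured by temperature. Among these 20 genes, 8 were highest at 10 °C, 9 at 18 °C and 3 at 28 °C. Of the 2980 other genes with a mean muscle RPKM of at least 5, 35.1% were highest at 10 °C, 36.2% at 18 °C and 28.8% at 28 °C.

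Between muscle at 10 and at 28 °C, similar numbers of the 215 genes were higher and lower. With a 2-fold difference in log2(RPKM + 1) as the limit, 41 were higher and 42 lower at 10 °C, 38.6% of the genes, against 31.7% of the 3841 genes with an RPKM of 5 in 1 of the libraries. Higher at 10 °C were 17.2% of those 3841 genes, and lower 14.5%. The median log2 difference of the 215 genes was -0.06, with quartiles of -0.84 and 0.74, beside 0.00 for all 3841. No test was possible between 2 single libraries. The share of all genes depended on the pseudocount: with 0.1 in place of 1 it was 38.6% of the 215 genes against 36.4% of all, and with 5 it was 35.8% against 17.9%. The size of the gap therefore gives no result about the muscle-restricted genes.

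The largest differences, both higher at 10 °C, were in 2 genes with a mean muscle RPKM below the median of 77.4. ENSONIG00000002492 had 140 RPKM at 10 °C (282 reads), 0.135 at 18 °C (1 read) and was listed at 0 at 28 °C. Against a floor of 3 reads in the 28 °C library it was 88.3-fold higher at 10 °C. The exact interval of the ratio began lower, at 71.3. ENSONIG00000018494 had 68.2 RPKM at 10 °C (440 reads), 0.548 at 18 °C (13 reads) and 0.330 at 28 °C (2 reads), and the ratio of 10 to 28 °C was 207 (interval 56.9 to 1711). Both genes were high in the 10 °C library alone, and their place in the set rests on it.

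Among the genes lower at 10 °C, ENSONIG00000019166 had 4.67 RPKM at 10 °C (7 reads), 76.7 at 18 °C (423 reads) and 201 at 28 °C (283 reads). Its ratio of 10 to 28 °C was 0.0232 (interval 0.00925 to 0.0485). ENSONIG00000009296 had 6.0 RPKM at 10 °C (9 reads), 107 at 18 °C (592 reads) and 171 at 28 °C (241 reads), a ratio of 0.0351 (interval 0.0158 to 0.0677). In both, the 10 °C library was far below the other 2. Both genes had a recovered length of 1464 bp. Whether they are near-identical copies that share reads could not be checked without sequences, nor could overlap with genes on the other strand. The level of ENSONIG00000009296 in muscle at 10 °C was below its 8.97 RPKM in gill at 28 °C.

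Muscle at 18 against 28 °C gave 37 of 213 genes higher and 29 lower by 2-fold, 31.0% of the genes, against 35.0% of the 4049 genes compared. Of those 4049, 17.9% were higher and 17.1% lower. The order of these shares turned with the setting: with a pseudocount of 5 they were 26.3% of the muscle-restricted genes against 17.8% of all, and with no filter on low values 30.7% against 20.9%. The median log2 difference was 0.15, with quartiles of -0.59 and 0.76, beside 0.09 for all genes. Among the 20 most abundant, 7 were at least 2-fold higher at 18 °C and 1 was lower.

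ENSONIG00000010781 had 26.3 RPKM at 10 °C (17 reads), 2541 at 18 °C (6028 reads) and 116 at 28 °C (70 reads). The ratio of 18 to 28 °C was 22.0 (interval 17.4 to 28.3), and the 18 °C library stood alone on the high side. ENSONIG00000006026 had 58.9 RPKM at 10 °C, 20.6 at 18 °C and 1.09 at 28 °C (5 reads), so both cold libraries lay above the warm one. ENSONIG00000011145 had 3.50 RPKM at 10 °C, 1.90 at 18 °C and 41.7 at 28 °C, and ENSONIG00000009463 had 879, 295 and 1671. In both, the 28 °C library was the highest and 18 °C the lowest. ENSONIG00000011145 met the rule only through its 28 °C library and ENSONIG00000006026 only through its cold ones, so these 2 differences follow from the choice of genes.

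Between 10 and 18 °C, 36 of 214 genes were higher at 10 °C and 42 lower, 36.4% of the genes, against 42.1% of the 4057 compared. Higher at 10 °C were 20.6% of those 4057 and lower 21.6%. Here too the order turned, to 31.8% of the muscle-restricted genes against 23.6% of all with a pseudocount of 5, and to 36.3% against 22.7% with no filter. The median was -0.18, with quartiles of -0.84 and 0.53, beside -0.07 for all genes. Highest here were again ENSONIG00000002492 and ENSONIG00000018494, with log2 differences of 6.96 and 5.48. ENSONIG00000010781 was the lowest at -6.54, followed by ENSONIG00000003134 at -4.34, which had 5.08 RPKM at 10 °C (10 reads), 122 at 18 °C (886 reads) and 31.9 at 28 °C (59 reads). Each of the 3 muscle libraries enters 2 of these comparisons, so they are not independent of one another.

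**Figure D4:**
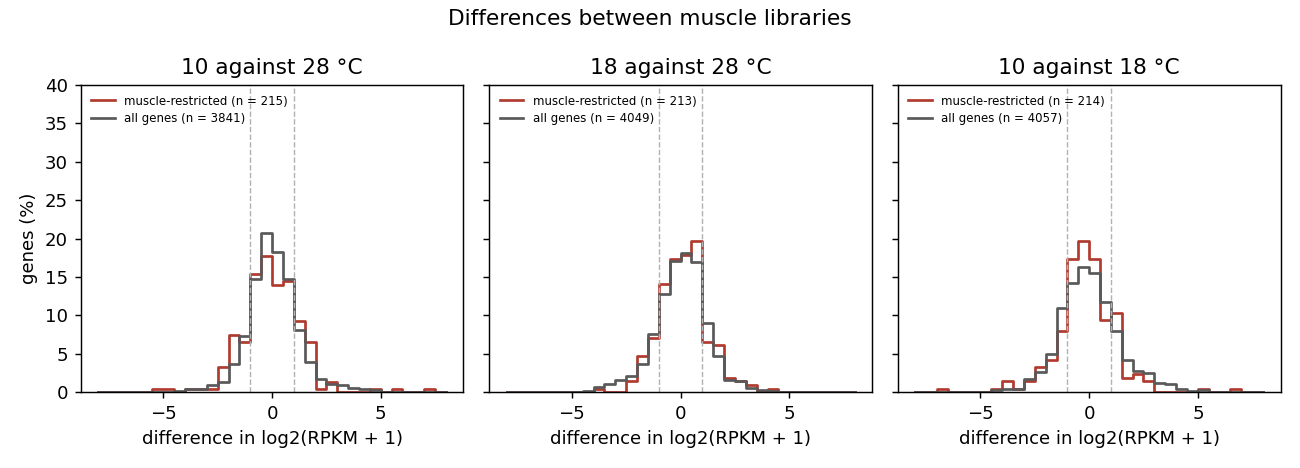
Share of genes, in %, by difference in log2(RPKM + 1) between 2 muscle libraries, in steps of 0.5, for the muscle-restricted genes in red and all genes compared in grey, with dashed lines at the 2-fold limit. The red and grey outlines overlap over most of their width in each panel, and the few red steps beyond 4 or -4 are single genes.

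Over the 3 temperatures, the spread of each gene was set beside that of the other genes with a mean muscle RPKM of at least 5, with a pseudocount of 1 only and without a test. The median distance between a gene's highest and lowest muscle library was 1.21 on the log2 scale, with quartiles of 0.75 and 1.85, beside 1.05 for the other 2980 genes. All 3 libraries lay within 2-fold in 81 of the 215 genes, 37.7%, and in 47.6% of the others. A spread of 16-fold or more was seen in 7 of the 215 genes, 3.26%, and in 2.65% of the others. Muscle at 18 °C was the highest library for 82 genes, 28 °C for 68 and 10 °C for 65, shares of 38.1%, 31.6% and 30.2%, beside 36.2%, 28.8% and 35.1% of the others. RPKM was steadily higher toward 10 °C in 37 genes, 17.2%, against 14.7% of the others, and steadily lower toward 10 °C in 39, 18.1%, against 13.1%.

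Both directions were found at each abundance. The 215 genes were split into 4 groups of 53 or 54 by muscle level. In the highest group, from 337 RPKM, 9 were at least 2-fold higher at 10 than at 28 °C and 10 lower, with a median of 0.28. The group below it had 8 higher and 14 lower, with a median of -0.33, and the next 9 higher and 7 lower, with a median of 0.10. The lowest group, up to 30.0 RPKM, had 15 higher and 11 lower, with a median of -0.09. Of all 3841 genes compared, at any level, 17.2% were higher and 14.5% lower. Shares of all genes at each level were not computed, so these counts give no result about the muscle-restricted genes. The median spread over the 3 libraries was 1.46 in the lowest group and 1.29 in the highest.

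A straight line on temperature was fitted to the 3 muscle libraries for the 11022 genes that reached an RPKM of 1 in any of them. limma called 5 of the 215 genes at an adjusted p under 0.05, 3 higher and 2 lower toward 10 °C, against 0.544% of all genes tested. At an unadjusted p under 0.05 there were 16, 7 higher and 9 lower, against 3.35% of all. These shares are not of like genes: a mean muscle RPKM of at least 5 was reached by only 3195 genes, and log2(RPKM + 1) understates changes of low ones. ENSONIG00000002492 and ENSONIG00000018494 met the rule only through their 10 °C library, so a slope in these 2 follows from the choice of genes. The other genes called also had a library too low to meet the rule alone. ENSONIG00000006026 had 1.09 RPKM at 28 °C and met it only through its cold libraries. At 10 °C, ENSONIG00000019166 had 4.67 RPKM and ENSONIG00000009296 had 6.0. Slopes in these genes are therefore not free of the choice either. The fitted change from 28 to 10 °C was 6.86 (SE 1.01, limma adjusted p = 6.18e-08) in ENSONIG00000002492, 5.48 (SE 1.01, limma adjusted p = 8.35e-05) in ENSONIG00000018494 and 4.89 (SE 0.98, limma adjusted p = 0.000603) in ENSONIG00000006026. It was -5.05 (SE 0.98, limma adjusted p = 0.000271) in ENSONIG00000019166 and -4.48 (SE 0.98, limma adjusted p = 0.00239) in ENSONIG00000009296.

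With 1 residual degree of freedom, limma took genes of like level to have the same spread. Its p-values set each slope against that shared departure from a line in 3 libraries, and not against the spread between fish. In simulated data this fit made more calls among unchanged genes than its threshold allows. With limma-voom, run on the reads with the library constants as depth, the same 5 genes were among 7 called, against 0.517% of all genes. The fitted changes of 2 of them, with 0 and 2 reads at 28 °C, depended on the method. ENSONIG00000002492 had a change of 19.04 with limma-voom, 10.12 with a pseudocount of 0.1 and 4.66 with a pseudocount of 5, and ENSONIG00000018494 one of 13.80 with limma-voom and 3.63 with a pseudocount of 5, so only their direction held. A fit on all 21 libraries, with a slope for each tissue, called 3 of the 215 genes, against 0.145% of all. The 215 genes were chosen to be low in the other tissues, so the residual of that fit can be too small for them. At an unadjusted limma p under 0.05, that fit took in 27.0% of the 215 genes, against 9.66% of all. Its calls are therefore no separate support. ENSONIG00000006026 and ENSONIG00000019166 were called by limma in each of the 7 settings tried, with adjusted p of 1.66e-05 to 0.0362 and of 6.19e-06 to 0.00696. ENSONIG00000002492, ENSONIG00000018494 and ENSONIG00000009296 were called in 6 of 7, the exception being the fit on 21 libraries, with limma adjusted p of 0.113, 0.113 and 0.0942. Each setting used the same 3 muscle libraries, so a call in several settings is no separate support.

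Gene length was compared because differences between libraries went with it over all genes. The recovered lengths had a median of 2045 bp in the 215 genes and 2217 bp in the 2980 others. The 215 genes were split into 3 length classes, the shortest up to 1557 bp and the longest from 3145 bp. At 18 against 28 °C the shortest class had a median of -0.04 on the log2 scale and the longest class 0.27, beside -0.29 and 0.23 in the others. At 10 against 18 °C the medians were -0.02 and -0.37, beside 0.32 and -0.28. At 10 against 28 °C they were -0.06 and -0.20, beside 0.09 and -0.07. Here the middle class of the 215 genes had 0.07, above both, so these medians did not follow the order of length. In the other pairs, and in the other genes, the middle class lay between the shortest and the longest. The part of length in the differences between muscle libraries was not tested.

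Outside muscle, ENSONIG00000002856 made up most of the summed level of the 215 genes in gill, and in kidney, heart, brain and spleen at 10 °C. Its share was 33.0% to 53.1% in liver and small in some other libraries, with 0.427% in heart at 18 °C and 1.64% in brain at 28 °C. The sum reached 36067 RPKM in kidney at 10 °C, against 1240 at 18 °C and 804 at 28 °C. Without ENSONIG00000002856, the kidney sums were 653, 870 and 674 RPKM at 10, 18 and 28 °C. In gill the sums of 16114, 15483 and 8258 RPKM became 444, 555 and 532, and in heart those of 7002, 1877 and 2167 became 1418, 1869 and 1687. In brain, 1189, 209 and 184 became 119, 205 and 181. In kidney, gill, heart, brain and spleen the sum was higher at 10 than at 28 °C with that gene counted and lower without it. In liver the sum was higher at 10 than at 28 °C both with it, 3373 against 2575 RPKM, and without it, 2259 against 1208.

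**Figure D5:**
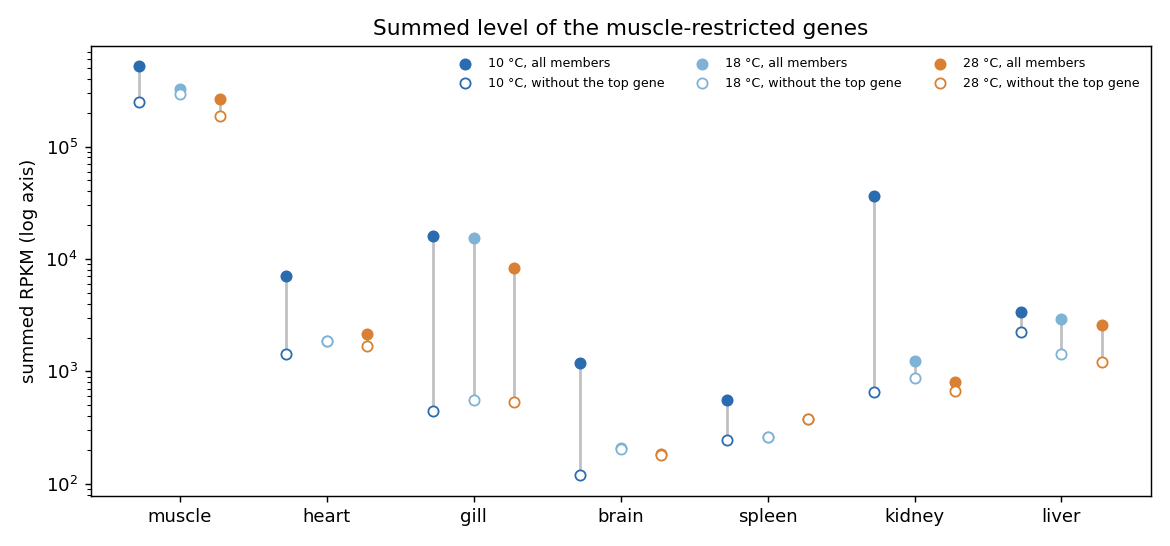
Summed RPKM of the muscle-restricted genes in each library, on a log axis, with filled points for all 215 genes and open points without ENSONIG00000002856, joined by a grey line and coloured by temperature. The gap is widest in kidney at 10 °C, where the filled point is at 36067 and the open one at 653.

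As a share of the mean muscle sum, the other 214 genes reached from 0.0493% in brain at 10 °C to 0.933% in liver at 10 °C. In liver most of that was ENSONIG00000012916, with 2132, 1268 and 1025 RPKM at 10, 18 and 28 °C, against 20079, 11179 and 11748 in muscle. It also had 426 to 561 RPKM in heart and 437 to 677 in kidney. With a margin of 3.28, it and ENSONIG00000002856 were the 2 most abundant genes near the lower edge. In bulk tissue, fewer muscle fibres in a sample and less RNA per fibre cannot be told apart.

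The number of the 215 genes with an RPKM of at least 1 was 83 to 98 in the heart libraries and 66 to 71 in gill. It was 28 to 37 in brain, 29 to 37 in kidney, 25 to 34 in spleen and 14 to 24 in liver. In all, 158 genes reached 1 RPKM in at least 1 of the 18 libraries, 57 did in none, and 6 of these were listed at 0 in all 18. Only 8 reached 100 RPKM in any of them. Depth differed between these libraries, and its part in the counts was not tested.

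Heart, the other striated muscle, held the most of these genes at an RPKM of 5. At 10 against 28 °C, 4 of 55 were at least 2-fold higher and 9 lower, 23.6%, against 15.3% of all genes compared in heart. Of all those genes, 4.85% were higher and 10.5% lower. At 18 against 28 °C, 10 of 53 were higher and 20 lower, 56.6%, against 56.1% of all genes, of which 35.0% were higher and 21.1% lower. The median was -0.59, beside 0.43 for all genes. The heart library at 18 °C had 274892 summed RPKM, against 135785 at 10 °C and 142442 at 28 °C. In gill, 4 of 24 genes were higher and 5 lower at 10 against 28 °C, 37.5%, against 36.6% of all genes, of which 16.2% were higher and 20.4% lower. Between 10 and 18 °C in gill, 0 were higher and 4 lower, 16.7%, against 7.24% of all genes, of which 2.34% were higher and 4.90% lower. These heart and gill counts rest on few genes and were made with a pseudocount of 1 only. The gaps therefore give no result about the muscle-restricted genes.

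The genes outside the set whose 21 values followed the mean of the 215 genes most closely were ENSONIG00000005799 and ENSONIG00000017653, with Pearson r of 0.987 and 0.985 over 21 libraries on the log2(RPKM + 1) scale. The first had 6.31, 7.76 and 6.72 RPKM in muscle at 10, 18 and 28 °C and the second 7.36, 7.80 and 11.4. Their margins were 2.74 and 2.78, just short of the 3 that the rule asks. The mean muscle level of the first, 6.93 RPKM, was too low to reach that margin whatever its level elsewhere. Within the set the median r was 0.965, and ENSONIG00000002492 had the lowest, 0.385. The rule took genes high in muscle and low elsewhere, and the mean holds each gene of the set. A high r is therefore largely fixed by the choice, also for genes just short of the margin.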

How the data were processed

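The authors deposited 1 RPKM value per gene and library. Per the submitters' processing notes the tools were TopHat, Bowtie and HTSeq, without versions. The build and the gene annotation were not given in the sources used here. Reads, gene lengths and library constants were solved from the RPKM values (whole within 1e-06 for all 17094 genes above 0), and the solver was tested on simulated data.

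Groups followed the labels, with 1 library each, so pairs of muscle libraries were compared by counts past 2-fold on log2(RPKM + 1), a scale that understates changes of low genes. Slopes were tested two-sided with limma (version 3.58.1, R 4.3.3, trended prior variance), with Benjamini-Hochberg adjustment over all genes tested. Alternatives covered pseudocount, filters, median-of-ratios scaling, limma-voom on the recovered reads, the fit on 21 libraries and the rule itself. Python 3.11.15 did the rest.

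The genes and lists were chosen with earlier results of these data known. Named genes were those highest in muscle, at either end of the margin, highest outside muscle, the 2 extremes of each comparison with at least 20 reads, the slope calls, and the closest genes outside the set. Lists of muscle genes and of markers of other cell types held symbols only, so none was tested.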

Additional observations from a re-analysis of the deposited data

How the results depend on the processing

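The number of muscle-restricted genes was 374 with a margin of 2, 133 with a margin of 4 and 129 with a pseudocount of 5, against 215. It was 216 to 272 with a pseudocount of 0.1, with each temperature left out or with median-of-ratios scaling. With a temperature left out, 199 to 203 of the 215 genes stayed in the set and other genes entered it. Counts of the muscle-restricted genes past 2-fold stayed within 1.5 times in the alternatives tried, including a minimum of 20 reads chosen after the data were seen. Those of all genes did not: with a pseudocount of 5, 411 were higher and 275 lower at 10 against 28 °C in place of 660 and 556, 323 and 398 at 18 against 28 °C in place of 726 and 693, and 554 and 403 at 10 against 18 °C in place of 835 and 875. Median-of-ratios scaling moved the median of all genes at 10 against 28 °C from 0.00 to 0.17 on the log2 scale and that of the 215 genes from -0.06 to 0.07, so its sign depends on scaling. The slope fit on 21 libraries called 3 of the genes in place of 5. The median summed level in other tissues was 0.548% of muscle, 0.281% without the 2 highest genes and 0.249% without ENSONIG00000002856, the last chosen after the data were seen. With a limit of 5 RPKM, 73 genes were counted outside muscle in place of 158. None of the 12 differences of named genes changed sign in 36 recalculations, but this outcome was fixed in advance. A pseudocount cannot turn a sign, and the scaling factors of the muscle libraries, 0.955 to 1.05, were too near 1 to turn such large differences. No paired analysis was possible because the labels give no replicate numbers and each group has 1 library. Depth limits the genes with fewer than 5 reads in a muscle library.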

Other observations

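Another 3 muscle-restricted genes were called for a slope in muscle by some alternatives and not by the fit reported above. They were picked out after their values were seen. ENSONIG00000018138 had 17.3, 6.47 and 1.58 RPKM in muscle at 10, 18 and 28 °C (35, 48 and 3 reads) and was listed at 0 in all 18 libraries of other tissues. It was called in the fit on 21 libraries alone (limma adjusted p = 0.00405, over the alternatives 0.00405 to 1.00). Its values of 0 in the other tissues can make the residual of that fit too small. Of its muscle libraries, only that at 10 °C met the margin alone, so a slope in this gene follows from the choice of genes. ENSONIG00000007208 had 22.8, 301 and 302 RPKM at 10, 18 and 28 °C and was called in 3 of 7 settings (limma adjusted p from 0.0210 to 0.369). With 10.7 RPKM in heart at 10 °C, it did not meet the rule at that temperature alone. Its slope is therefore not free of the choice of genes either. ENSONIG00000011145, described above, was called in 2 of 7 (limma adjusted p from 0.0248 to 0.143). It met the rule only through its 28 °C library, so its slope follows from the choice of genes as well.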
